A study of Rattus norvegicus with 20 samples.

Results

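Lipid-associated macrophage markers is the label here for 7 genes, not all particular to those cells: Gpnmb, Lyz2, Lgals3, Cd5l, Cd300lb, Evi2b and Plet1. These 7 genes were followed in rat epididymal tissue. They were chosen by their measured values, being raised in obese over lean arrays in these same data, so their obese and lean levels are given as a description and were not tested. All 7 were measured, each by 1 probe set that names that gene alone, among 14557 genes with such a probe set. The study hybridised 20 samples from male ZDF rats, whose strain the labels give as Zucker, to Rat Gene 2.1 ST arrays, with 5 arrays in each of 4 groups. The groups were rosiglitazone (a PPAR-gamma agonist used against diabetes), resveratrol (a plant polyphenol), obese rats on a stock diet for 6 weeks, and lean control rats on a standard chow. Compound-treated rats are taken here as obese rats, which their labels do not state. The genotype, age, dose, route and duration of treatment, and the diet of compound-treated rats, are not stated in the labels. Obese and lean control rats differed in diet too, so diet and obesity cannot be told apart. Whether diet also differed between compound-treated and obese rats is not known, so compound and diet cannot be told apart there. Titles number the 5 arrays of a group as biological replicates.

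As background, macrophages gather in obese fat around dying fat cells and take up the lipid that these release. Such lipid-associated macrophages carry large lysosomes and a program of lipid uptake and breakdown, and the surface receptor Trem2 defines them in mouse and human fat. Gpnmb is a membrane glycoprotein of lysosome-rich macrophages and pigment cells, and Lyz2 is lysozyme, which cleaves bacterial cell walls. Lgals3 is galectin 3, a secreted lectin that binds galactose-containing sugars, and Cd5l is a scavenger-receptor protein that macrophages secrete and that in mouse is a target of the liver X receptor (LXR). Cd300lb is an activating receptor of myeloid cells that binds lipids of dying cells in mouse and signals through the adaptor Tyrobp. Evi2b is a membrane protein of blood-derived cells, and its gene lies within the span of Nf1 on chromosome 10 in RefSeq's GRCr8 assembly. Plet1 is a surface protein best known in mouse from placenta and epithelial progenitors, and also found in some myeloid cells.

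Promoter sequences of 4 members (Gpnmb, Lyz2, Cd5l and Evi2b) are shown as a description, and those of Cd300lb and Plet1 were searched but are not shown. They come from RefSeq (GRCr8), which matched 6 of the 7 members (not Lgals3), run 5′ to 3′ on the gene's strand and cover the 250 bases before the annotated start. Capitals mark matches, on either strand, to 3 motifs. TCACATG is a form of the M-box read by the lysosome and pigment factors of the MITF family, and other forms were not searched. GAGGAA is the purine box of the macrophage factor PU.1 and its relatives, and TGANTCA is the AP-1 site. No matches of different motifs overlap.
Gpnmb (chr4:79340878-79341127, plus strand): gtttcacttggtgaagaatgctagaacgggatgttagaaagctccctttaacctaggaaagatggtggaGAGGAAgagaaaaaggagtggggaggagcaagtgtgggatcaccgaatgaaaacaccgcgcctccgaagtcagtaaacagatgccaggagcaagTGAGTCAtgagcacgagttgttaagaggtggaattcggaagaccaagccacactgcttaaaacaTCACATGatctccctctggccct
Lyz2 (chr7:54798012-54798261, minus strand): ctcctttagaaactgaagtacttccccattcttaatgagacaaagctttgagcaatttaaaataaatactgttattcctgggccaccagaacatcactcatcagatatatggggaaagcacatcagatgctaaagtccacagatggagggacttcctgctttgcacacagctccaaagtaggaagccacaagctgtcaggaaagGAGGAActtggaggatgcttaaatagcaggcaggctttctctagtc
Cd5l (chr2:175088665-175088914, plus strand): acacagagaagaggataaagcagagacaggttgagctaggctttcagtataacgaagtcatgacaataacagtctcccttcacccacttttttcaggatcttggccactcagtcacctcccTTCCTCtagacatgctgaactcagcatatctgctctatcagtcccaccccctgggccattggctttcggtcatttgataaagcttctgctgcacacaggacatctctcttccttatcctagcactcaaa
Evi2b (chr10:64972278-64972527, minus strand): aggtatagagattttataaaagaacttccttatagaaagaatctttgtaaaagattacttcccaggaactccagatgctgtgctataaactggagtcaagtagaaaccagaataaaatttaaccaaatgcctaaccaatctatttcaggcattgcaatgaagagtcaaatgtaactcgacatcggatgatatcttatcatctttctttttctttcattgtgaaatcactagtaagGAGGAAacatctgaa
The M-box letters were found in 1 of the 6 matched promoters, that of Gpnmb, where they end 17 bases before the start, and in 3.36% of all 33469 promoters of this length. GAGGAA or its complement was found in 5 of 6 (Gpnmb, Lyz2, Cd5l, Cd300lb and Evi2b) and in 23.3% of all promoters. TGANTCA was found in 2 of 6 (Gpnmb and Plet1) and in 6.34% of all. A match of letters is a description of the sequence and shows no binding.

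Values are log2 signals, so a difference of 1 is a doubling. The 95th percentile of 1280 olfactory, vomeronasal and taste receptor genes, 3.10, is used as the level of background, and a fold with a group mean under it is approximate. Trem2 (mean 4.93 over all arrays), Cd68 (6.14) and Csf1r (6.72) were above background, as were 19 of 21 measured general macrophage genes. All 13 neutrophil, all 5 B cell and 14 of 16 T and NK cell genes were near background. The label of the tissue says only epididymal: fat cell genes were bright, with array means of 16 genes from 8.94 to 9.69, and all 14 genes of epididymal duct and sperm were near background.

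In the lean control and both compound groups the same array was highest in every member, by gaps that differed between members. Lean control replicate 3 had the highest lean value in 7 of 7 members, and replicate 5 was highest in 7 of 7 in both compound groups. The mean over the 7 members reached 7.12 on rosiglitazone replicate 5, where the group's remaining arrays had 4.88 to 5.94. It reached 6.00 on lean control replicate 3, where the remaining lean arrays had 3.72 to 4.33. The SD of signal over all genes was also the highest of its group on both, at 2.01 (the remaining rosiglitazone arrays had 1.90 to 1.98) and 1.95 (the remaining lean arrays had 1.59 to 1.76). Resveratrol replicate 5 went the other way, with the lowest SD of its group at 1.81, where the remaining resveratrol arrays had 1.82 to 1.97.

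Gpnmb, the lysosomal glycoprotein whose promoter carries the M-box letters, had a higher mean in each of the other groups than in lean controls. In rosiglitazone replicates 1 to 5 Gpnmb read 7.70, 6.26, 7.38, 6.50 and 8.88, and in resveratrol replicates 1 to 5 it read 7.51, 8.80, 8.26, 7.82 and 9.32. Obese replicates read 7.84, 7.83, 8.23, 7.76 and 7.72, against 5.59, 4.90, 7.92, 4.68 and 4.42 in lean control replicates. Obese arrays lay within a narrow band, while rosiglitazone arrays spread below and above it and lean replicate 3 alone among lean arrays reached it. Means were 7.35 ± 1.05 with rosiglitazone, 8.34 ± 0.73 with resveratrol, 7.87 ± 0.20 in obese and 5.50 ± 1.42 in lean control rats (SD, n = 5 each). Obese rats were thus 5.18-fold above lean controls, and 7.88-fold without lean control replicate 3.

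Lyz2, lysozyme, followed the same order of group means. Rosiglitazone replicates, from 1 to 5, had Lyz2 at 9.81, 8.61, 9.44, 8.53 and 10.30, and resveratrol replicates had it at 9.61, 10.05, 10.12, 9.92 and 10.87. Obese replicates read 9.96, 9.44, 10.05, 9.86 and 10.10, against 8.02, 7.20, 9.98, 7.41 and 8.09 in lean control replicates. Of the lean arrays only replicate 3 fell in the obese range, and rosiglitazone replicates 2 and 4 lay below it. Means were 9.34 ± 0.77, 10.11 ± 0.47, 9.88 ± 0.27 and 8.14 ± 1.10 in rosiglitazone, resveratrol, obese and lean control rats (SD, n = 5 each). The obese mean was 3.34-fold above the lean mean, and 4.6-fold without lean control replicate 3. RefSeq lists a neighbouring gene of the lysozyme family, Lyc2, that also carries Lyz2 as a synonym, and signal from it cannot be told apart here.

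Lgals3, galectin 3, was the member whose highest group mean was that of rosiglitazone. Across replicates 1 to 5 Lgals3 was 7.44, 6.79, 8.06, 6.83 and 8.66 with rosiglitazone and 7.38, 7.61, 7.12, 6.70 and 7.71 with resveratrol. Obese replicates read 7.02, 6.69, 7.38, 6.97 and 7.15, against 5.92, 4.45, 6.78, 5.14 and 5.55 in lean control replicates. All 5 rosiglitazone arrays lay above all 5 lean arrays, and 3 of the 5 lay above every obese array. Means were 7.56 ± 0.81 with rosiglitazone, 7.30 ± 0.41 with resveratrol, 7.04 ± 0.25 in obese and 5.57 ± 0.87 in lean control rats (SD, n = 5 each). Obese rats were 2.78-fold above lean controls, and 3.42-fold without lean control replicate 3.

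Cd5l, the secreted scavenger-receptor protein, was low with rosiglitazone and in lean controls. Cd5l signals were 2.24, 1.79, 2.11, 2.04 and 3.99 in rosiglitazone replicates 1 to 5 and 3.11, 4.63, 3.58, 3.37 and 4.93 in resveratrol replicates. Obese replicates read 3.52, 3.11, 3.63, 3.16 and 3.40, against 1.65, 1.59, 2.59, 1.93 and 1.67 in lean control replicates. In 4 of 5 rosiglitazone arrays the value was below every obese and every resveratrol value, and replicate 5 was above every obese value. Means were 2.43 ± 0.88 with rosiglitazone, 3.92 ± 0.81 with resveratrol, 3.37 ± 0.22 in obese and 1.89 ± 0.41 in lean control rats (SD, n = 5 each). The rosiglitazone and lean means are near background, so the 2.79-fold difference between obese and lean control rats, 3.15-fold without lean control replicate 3, is approximate.

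Cd300lb, the activating lipid receptor, showed a like pattern at a spread that was widest with rosiglitazone. With rosiglitazone the 5 arrays gave Cd300lb 4.13, 2.50, 3.20, 2.39 and 4.87, and with resveratrol 4.17, 4.76, 4.80, 4.29 and 5.07. Obese replicates read 4.33, 4.52, 4.52, 4.09 and 4.41, against 2.68, 1.60, 3.94, 2.07 and 2.46 in lean control replicates. Rosiglitazone replicates 2, 3 and 4 lay below every obese array and replicate 5 above. Means were 3.42 ± 1.07, 4.62 ± 0.38, 4.37 ± 0.18 and 2.55 ± 0.88 in rosiglitazone, resveratrol, obese and lean control rats (SD, n = 5 each). The lean mean is near background, and obese rats were about 3.54-fold above it, and about 4.5-fold without lean control replicate 3.

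Evi2b, the membrane protein of blood-derived cells, was within the range of the lean arrays on 4 of 5 rosiglitazone arrays. The 5 rosiglitazone arrays read 5.57, 4.78, 4.94, 4.73 and 6.46 for Evi2b, and the 5 resveratrol arrays 5.70, 6.65, 6.50, 5.97 and 7.14. Obese replicates read 6.44, 6.15, 6.58, 6.29 and 6.48, against 5.01, 4.58, 5.98, 4.64 and 4.96 in lean control replicates. The obese and lean arrays did not overlap, and rosiglitazone replicates 1 to 4 lay below every obese and every resveratrol array. Means were 5.30 ± 0.73 with rosiglitazone, 6.39 ± 0.57 with resveratrol, 6.39 ± 0.17 in obese and 5.03 ± 0.56 in lean control rats (SD, n = 5 each), with obese rats 2.56-fold above lean controls, and 3.01-fold without lean control replicate 3. Evi2a, which lies beside Evi2b within the Nf1 span, averaged 4.76 ± 0.60, 5.18 ± 0.50, 5.03 ± 0.43 and 3.93 ± 0.81 in rosiglitazone, resveratrol, obese and lean control rats, and Omg, a myelin gene in that span, was near background in all 4.

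Plet1, the surface protein of epithelial progenitors and some myeloid cells, had the widest range. Plet1 read 4.68, 3.43, 4.40, 3.30 and 6.69 on rosiglitazone arrays 1 to 5, and 3.92, 6.15, 6.09, 5.12 and 7.38 on resveratrol arrays. Obese replicates read 5.73, 5.14, 6.24, 5.49 and 5.51, against 1.46, 1.69, 4.84, 2.01 and 2.17 in lean control replicates. Lean values lay near background except in replicate 3, and resveratrol values ran from below the obese range to well above it. Means were 4.50 ± 1.36, 5.73 ± 1.29, 5.62 ± 0.41 and 2.43 ± 1.37 in rosiglitazone, resveratrol, obese and lean control rats (SD, n = 5 each). Obese rats were about 9.11-fold above lean controls, and about 13.8-fold without lean control replicate 3. Of 12 measured genes of mesothelium and other lining epithelium, 5 were near background. In that list 0 had a positive difference between obese and lean control rats (median -0.28). The cells that made Plet1 were not tested.

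**Figure D1:**
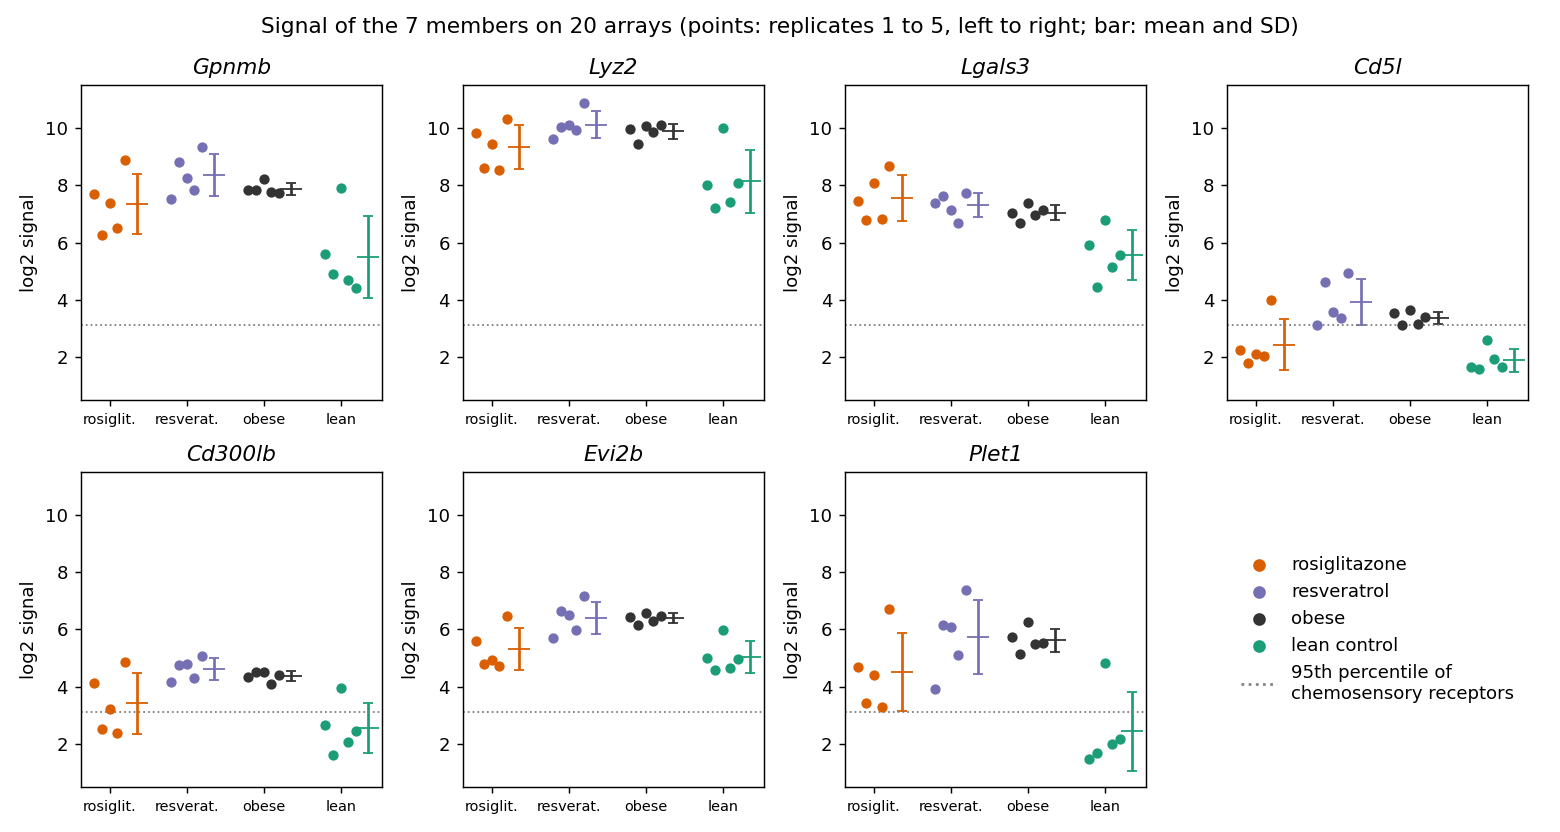
Log2 signal (vertical axis) of each of the 7 members on every array, by group (horizontal axis). Points are replicates 1 to 5 from left to right, bars are the mean and SD of 5 arrays, and the dotted line is the background level of 3.10. Obese arrays form tight clusters, rosiglitazone replicate 5 and lean control replicate 3 sit above the rest of their groups, and Lgals3 stays high with rosiglitazone.

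Set side by side over the whole group, 4 of 7 members (Cd5l, Cd300lb, Evi2b and Plet1) had no overlap between obese and lean control arrays, where 1.07% of all genes were higher in obese rats with no overlap. Without lean control replicate 3 all 7 had none, where 8.28% of all genes did. These arrays chose the members, so nothing is read from either count. Against the same lean arrays, log2 differences ran from 0.26 to 2.07 with rosiglitazone and from 1.36 to 3.30 with resveratrol, also without a test. Without lean control replicate 3 they ran from 0.50 to 2.67 with rosiglitazone and from 1.60 to 3.90 with resveratrol. Without rosiglitazone replicate 5 they ran from -0.02 to 1.71 with rosiglitazone, where Evi2b was the member below 0. In 1 of 7 members (Lgals3) no rosiglitazone array overlapped the lean arrays, where 8.39% of all genes were higher with no overlap. For resveratrol this held in 2 of 7 (Cd5l and Cd300lb), where it did for 1.02% of all genes. Without lean control replicate 3, 4 of 7 did not overlap with rosiglitazone (17.3% of all genes) and 7 of 7 with resveratrol (9.32% of all genes). In bulk tissue fewer macrophages and less of a transcript per macrophage cannot be told apart, here or in the comparisons that follow.

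Rosiglitazone and resveratrol arrays were compared because neither group entered the choice of the members. Rosiglitazone rats had less Cd5l and Evi2b RNA than resveratrol rats. Cd5l fell by 1.49 ± 0.34 on the log2 scale (SE), about 2.81-fold, to 2.43 ± 0.88 with rosiglitazone, against 3.92 ± 0.81 with resveratrol (adjusted p = 0.00591, limma over all genes). Evi2b fell by 1.10 ± 0.30, 2.14-fold, to 5.30 ± 0.73, against 6.39 ± 0.57 (adjusted p = 0.0204). In both genes 4 of 5 rosiglitazone arrays lay below every resveratrol array, and replicate 5 did not. Thus 2 of 7 members passed, both lower, where 1.92% of all genes passed as lower and 5.63% as higher. In 0 of 7 did the groups not overlap, where 1.83% of all genes were lower with no overlap.

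The other 5 members did not pass. Cd300lb had a log2 difference of -1.20 ± 0.38, with a 95% interval of -1.98 to -0.42, just outside the threshold (adjusted p = 0.0529). Plet1 differed by -1.23 ± 0.61 (interval -2.48 to 0.02, adjusted p = 0.269), Gpnmb by -0.996 ± 0.50 (interval -2.02 to 0.03, adjusted p = 0.276) and Lyz2 by -0.77 ± 0.38 (interval -1.55 to 0.01, adjusted p = 0.267). The last 3 intervals hold both a difference near 0 and a fall of over 2-fold. Lgals3 had a positive difference, 0.25 ± 0.34 (interval -0.45 to 0.95, adjusted p = 0.766), which turned to -0.02 without rosiglitazone replicate 5 and to -0.15 with the signal SD of each array as a covariate. The median of the 7 differences was -1.10, against 0.04 over all genes.

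Single arrays decided part of this. Without rosiglitazone replicate 5 the members called were 3 of 7: Cd5l (log2 difference -1.88, adjusted p = 9.73e-05), Evi2b (-1.39, adjusted p = 0.00133) and Cd300lb (-1.56, adjusted p = 0.00477). Each had no overlap with resveratrol, where 2.42% of all genes were called lower and 3.45% were lower with no overlap. The Evi2b call ended without rosiglitazone replicate 2 (adjusted p = 0.0656), 3 (0.057) or 4 (0.0721), or without resveratrol replicate 5 (0.0823), each of which left 1 member called, at differences of -0.91 to -1.01. It also ended when all features of the array were tested, at an unchanged difference (adjusted p = 0.0677). Cd5l passed with each of the 20 arrays left out in turn, at an adjusted p of up to 0.028.

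Rosiglitazone and obese arrays were compared to see how the drug group differed from obese rats. The obese arrays helped to choose the members as high genes, which favours a lower value with the drug, so the adjusted p-values of this comparison are not independent of the choice and are given as a description from which nothing is drawn. The same arrays serve the comparison of resveratrol with obese rats. Evi2b was at 5.30 ± 0.73 in rosiglitazone rats, against 6.39 ± 0.17 in obese rats, a log2 difference of -1.09 ± 0.30 (2.13-fold lower, adjusted p = 0.018). It was the only member of 7 under the threshold, where 2.68% of all genes passed as lower and 6.32% as higher. No member had non-overlapping groups, where 2.53% of all genes did as lower. Cd5l differed by -0.93 ± 0.34 (adjusted p = 0.0946), Cd300lb by -0.95 ± 0.38 (adjusted p = 0.131) and Plet1 by -1.12 ± 0.61 (adjusted p = 0.299). Gpnmb (-0.53 ± 0.50, adjusted p = 0.611) and Lyz2 (-0.54 ± 0.38, adjusted p = 0.461) were nearer to the obese level. Lgals3 had the only positive difference, 0.52 ± 0.34 (adjusted p = 0.424), with an interval of -0.18 to 1.22. Its size moved with the fit, from 0.12 with the signal SD of each array as a covariate to 0.71 without rosiglitazone replicate 2. Without rosiglitazone replicate 5 the Lgals3 difference was 0.24. Without rosiglitazone replicate 5, Evi2b, Cd5l (adjusted p = 0.00288) and Cd300lb (0.0154) were under the threshold as lower, 3 of 7 where 2.67% of all genes did, and 4 of 7 had no overlap, where 3.98% of all genes did. Evi2b was over the threshold without rosiglitazone replicate 2 (adjusted p = 0.0578), 3 (0.0533) or 4 (0.0653), and with all features tested (0.058).

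Resveratrol and obese arrays were compared to see how the resveratrol group differed from obese rats. No member passed in limma, and 0 of 7 had an unadjusted p under 0.05. Over all genes 0 passed (0.00%), with 410 at an unadjusted p under 0.05. Differences were positive in 7 of 7, from 0.01 for Evi2b to 0.56 for Cd5l, where the interval was -0.14 to 1.26. Plet1 (0.11), Lyz2 (0.23), Cd300lb (0.25), Lgals3 (0.26) and Gpnmb (0.47) lay between. That of Evi2b turned negative when resveratrol replicate 5 was left out (-0.18), as did that of Plet1 (-0.30). The intervals of Gpnmb (-0.56 to 1.49) and Plet1 (-1.14 to 1.36) still hold changes of over 2-fold. So do those of Cd5l, Cd300lb (-0.54 to 1.03) and Lyz2 (-0.55 to 1.01). Those of Lgals3 (-0.44 to 0.96) and Evi2b (-0.60 to 0.62) do not. These values therefore do not show that resveratrol left the members unchanged.

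**Figure D2:**
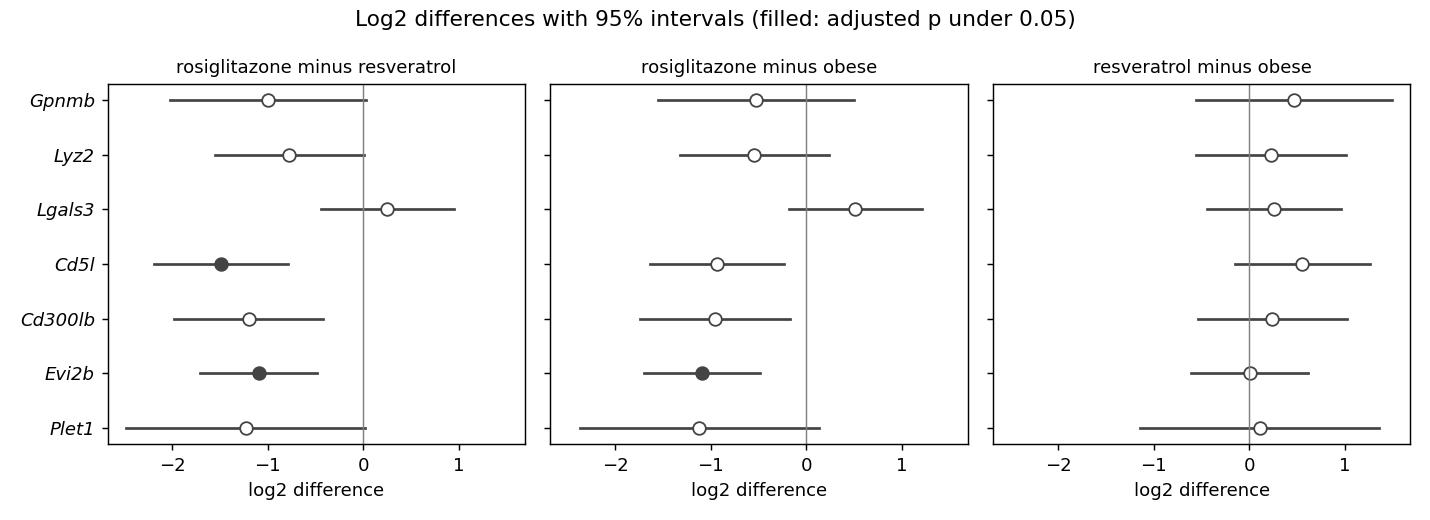
Log2 difference of each member (rows) in the 3 comparisons between obese and compound-treated groups, with its 95% interval from limma (horizontal axis, log2 units). Filled points had an adjusted p under 0.05 over all 14557 genes: Cd5l and Evi2b in rosiglitazone minus resveratrol, lower with rosiglitazone, and Evi2b in rosiglitazone minus obese, where the obese arrays helped to choose the members and the p is a description.

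Within an array, the log2 ratio of Lgals3 over Evi2b was 1.86 to 3.12 with rosiglitazone, 0.57 to 1.68 with resveratrol, 0.53 to 0.80 in obese and -0.13 to 0.91 in lean control rats. Rosiglitazone arrays, replicate 5 included, overlapped no other group in this ratio. For Lgals3 over Gpnmb the ratio was -0.27 to 0.68 with rosiglitazone, -1.61 to -0.13 with resveratrol, -1.14 to -0.57 in obese and -1.14 to 1.14 in lean control rats. In this ratio, and in those over Lyz2 and Plet1, rosiglitazone arrays overlapped resveratrol and lean control arrays but not obese arrays. Ratios over Cd5l and Cd300lb are not given, since these were under the background level on some rosiglitazone arrays. Plet1 was under that level on lean control replicates 1, 2, 4 and 5, so its ratio on those arrays is approximate. Ratios were formed after the values were seen and were not tested. How often ratios of other gene pairs separate the groups was not counted, and the obese and lean control arrays helped to choose the members.

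The members shared their array-to-array variation inside the groups. After each group mean was subtracted, Pearson's r between members over the 20 arrays ran from 0.70 to 0.95 over 21 pairs, with a median of 0.88, and Spearman's rho had a median of 0.81. Lean control replicate 3 and rosiglitazone replicate 5 were the arrays farthest from their group means. Without both, the median r over 18 arrays was 0.74, with a range of 0.43 to 0.89. Values of 1 array share its RNA, hybridisation and signal range, and the mean deviation of the members was related to that of the array's signal SD at r = 0.58 (rho = 0.41), and at r = 0.14 without those arrays. These correlations are descriptions of 20 arrays.

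**Figure D3:**
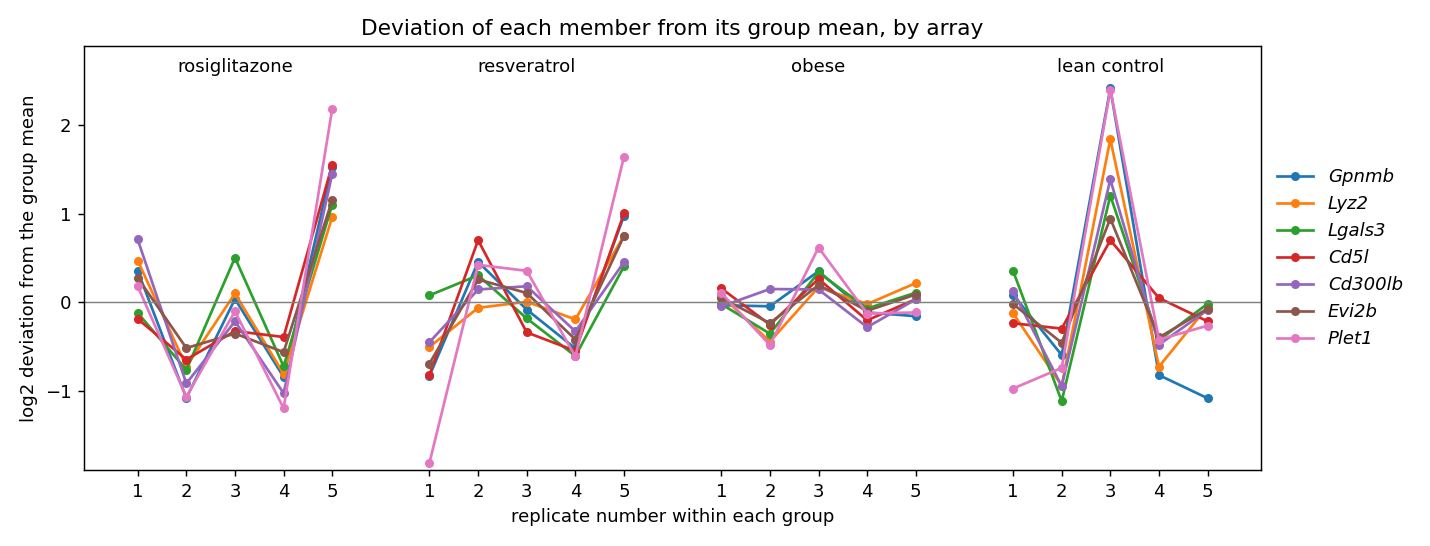
Deviation of each member from its group mean (vertical axis, log2 units) on each array, with replicates 1 to 5 of each group along the horizontal axis. Lines of 1 colour are 1 gene and only join its points. The 7 lines rise and fall together, highest in replicate 5 of both treated groups and in lean control replicate 3.

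Among genes above background, the 10 most like the mean of the 7 members inside the groups were Lipa, Cd68, Atp1b1, Dnase1l3, Tmem176a, Cd53, Itgb2, Fcer1g, Tmem176b and Lcp1, with r from 0.93 to 0.97 over 20 arrays. Lipa, the lysosomal acid lipase that frees cholesterol and fatty acids from lipid taken up, came first (rho = 0.96, and r = 0.93 without the 2 farthest arrays). Cd68, a lysosomal membrane protein of macrophages, came next (r = 0.97, and 0.92 without them). Of these 10 genes 3 were lower with rosiglitazone than with resveratrol in limma, where 1.92% of all genes passed as lower and 5.63% as higher. The 10 were picked for varying with the members, so their differences are not independent of those of the members. Dnase1l3, a secreted DNA-cutting enzyme, was at 4.18 with rosiglitazone, against 6.08 with resveratrol (adjusted p = 0.00964). Tmem176a was at 6.28 with rosiglitazone, against 7.42 with resveratrol (adjusted p = 0.0478), and Tmem176b, a related membrane protein of myeloid cells, at 6.998 with rosiglitazone, against 8.07 with resveratrol (adjusted p = 0.018). Lipa, at 6.85 with rosiglitazone, against 7.90 with resveratrol (adjusted p = 0.108), and Cd68, at 6.01 with rosiglitazone, against 6.96 with resveratrol (adjusted p = 0.192), did not pass.

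Each member's own nearest genes differed in part, with r over the same 20 arrays. Gpnmb was nearest to Cd68 (r = 0.95), Atp1b1 (r = 0.95) and Lipa (r = 0.94). Lyz2 was nearest to Clec4a1 (r = 0.92), Lipa (r = 0.92) and Fcer1g (r = 0.91). Lgals3 was nearest to Apobec1 (r = 0.93), Coro1c (r = 0.91) and Tmem176b (r = 0.91), of which Coro1c regulates actin. For Cd5l the nearest were Ccl9 (r = 0.93), Prcp (r = 0.90) and Gpr65 (r = 0.89), led by a chemokine. Cd300lb was most like Cd68 (r = 0.91), Arhgap30 (r = 0.91) and Unc93b1 (r = 0.91), and Evi2b most like Dnase1l3 (r = 0.96), Lipa (r = 0.95) and Cd53 (r = 0.93). For Plet1 they were Lipa (r = 0.95), Dnase1l3 (r = 0.93) and Ccl9 (r = 0.93). Lipa thus stood among the 3 nearest of 4 members.

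Other macrophage genes are given by lists chosen with earlier results of these data known. Of 21 general macrophage genes 0 passed between rosiglitazone and resveratrol in limma (7 had an unadjusted p under 0.05), and 3 of 21 had a positive difference, with a median of -0.45, against 0.04 over all genes. That median was -0.73 without rosiglitazone replicate 5, -0.26 without replicate 2 and -0.29 without replicate 4. Array means of this list were 4.70 to 6.13 with rosiglitazone, 5.39 to 5.92 with resveratrol, 5.04 to 5.63 in obese and 4.49 to 5.64 in lean control rats, and rosiglitazone replicate 5 and lean control replicate 3 were the highest of their groups. Of 23 genes described for lipid-associated macrophages, 2 were higher with rosiglitazone than with resveratrol and 0 lower. Their median was -0.10, where that of the 7 members was -1.10. Over all genes 5.63% passed as higher and 1.92% as lower between these groups, also for the lists below. Olr1, the receptor for oxidized lipoprotein, was at 6.79 ± 1.02 with rosiglitazone, against 5.04 ± 0.53 with resveratrol (3.37-fold, adjusted p = 0.00581). Creg1, a secreted glycoprotein of lysosomes, was at 5.08 ± 0.14 with rosiglitazone, against 3.78 ± 0.13 with resveratrol (2.46-fold, adjusted p = 0.000335). Trem2, which defines these cells, had a log2 difference of -0.65 and Cd9, a tetraspanin used with it as a marker, of -0.31, and neither passed. That list also holds Lpl, Fabp4 and Cd36, which fat cells make, and which cells made Olr1 and Creg1 was not tested.

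Genes of resident and perivascular macrophages had 4 of 13 lower with rosiglitazone than with resveratrol and 0 higher, with a median of -0.29. Fcna, a ficolin of innate defence, was at 4.44 ± 0.56 with rosiglitazone, against 5.86 ± 0.25 with resveratrol (2.68-fold, adjusted p = 7.97e-05), and F13a1, a clotting factor subunit made by such macrophages, at 5.82 ± 0.63 with rosiglitazone, against 7.02 ± 0.26 with resveratrol (2.31-fold, adjusted p = 0.0115). The hyaluronan receptor Lyve1 (2.09-fold, adjusted p = 0.0233) and the chemokine Ccl24 (1.95-fold, adjusted p = 0.0247) were lower too. Lyve1 is also made by lymphatic vessels, and 6 of 10 vessel lining genes were lower with rosiglitazone and 1 higher, whose part in the Lyve1 difference was not tested. Monocyte genes had 1 of 10 lower, Treml4 (2.22-fold, adjusted p = 0.00138), and 1 higher, the chemokine receptor Cx3cr1, at 3.48 ± 0.72 with rosiglitazone, against 2.48 ± 0.18 with resveratrol (adjusted p = 0.0092). Ccr2, the receptor that recruits monocytes, differed by -1.31 and did not pass.

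Lysosomal genes had 1 of 25 lower with rosiglitazone than with resveratrol, the protease Ctsh (1.59-fold, adjusted p = 0.0257), 0 higher, and a median of -0.02. Targets of LXR and cholesterol efflux genes, a pathway that drives Cd5l in mouse, had 3 of 14 higher and 0 lower. The sterol exporter Abcg1 was 2.52-fold higher (adjusted p = 6.79e-05), the phospholipid-remodelling enzyme Lpcat3 2.55-fold (adjusted p = 0.000141) and Tmem135 2.16-fold (adjusted p = 0.000161). Of 13 receptors and adaptors related to Cd300lb 0 passed in limma (6 at an unadjusted p under 0.05), where Tyrobp differed by -0.12 and Fcer1g by -0.80. Galectins other than Lgals3 had 2 of 10 higher and 0 lower. Lgals12, the galectin of fat cells, was 2.95-fold higher (adjusted p = 0.00278), and Lgalsl, a galectin-like protein, 1.82-fold (adjusted p = 0.0262), while Lgals1 differed by 0.33 and did not pass. Between rosiglitazone and obese rats, 2 lipid-associated, 4 LXR, 1 galectin, 1 monocyte and 1 Cd300lb-related gene were higher, and 2 resident, 2 monocyte and 1 Cd300lb-related gene were lower. In that comparison 6.32% of all genes passed as higher and 2.68% as lower, also for the lists below. Between resveratrol and obese rats 0 of the 232 listed genes passed in limma (7 at an unadjusted p under 0.05).

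**Figure D4:**
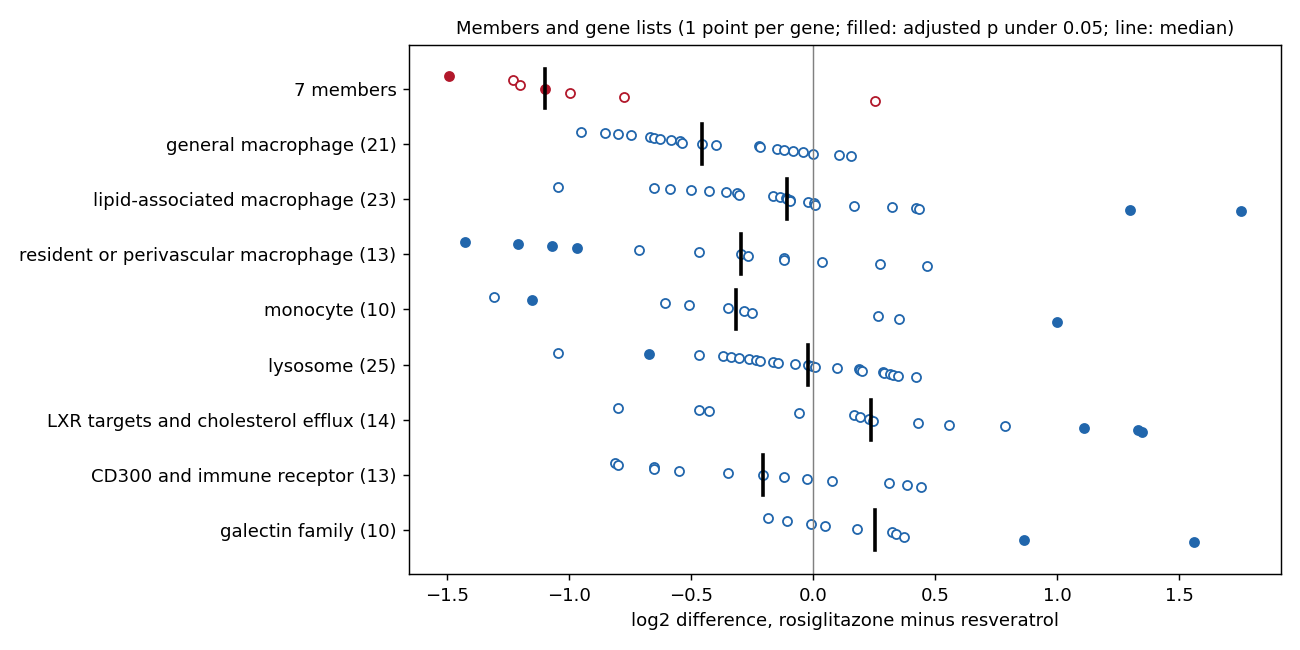
Log2 difference between rosiglitazone and resveratrol rats (horizontal axis) of the 7 members and of each measured gene of 8 lists (rows, number of genes in brackets). Each point is 1 gene, filled points passed at an adjusted p of 0.05, and vertical lines are medians. The members lie mostly below 0 (median -1.10), as do general macrophage genes (median -0.45), while LXR targets (0.24) and galectins (0.25) have positive medians.

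Markers of other cells moved with rosiglitazone as well, first against resveratrol. Vessel lining genes had a median of -0.83, with array means of 4.74 to 5.07 with rosiglitazone and 5.48 to 6.00 with resveratrol. Of 15 fibroblast and preadipocyte genes 6 were lower and 0 higher (median -0.46), with array means of 5.74 to 6.63 with rosiglitazone and 6.55 to 6.87 with resveratrol. In rosiglitazone against obese rats 6 of 10 vessel lining genes were lower and 1 higher, with obese array means of 5.44 to 6.08, and 5 of 15 fibroblast and preadipocyte genes were lower and 0 higher, with obese array means of 6.30 to 6.88. Between rosiglitazone and resveratrol, fat cell genes had 3 of 16 higher and 0 lower (median -0.07), and mesothelial genes 1 of 12 higher and 1 lower. Of 16 T and NK cell genes 2 were lower: Cd4, which rat macrophages also carry, and Thy1, which fibroblasts carry. The T cell receptor subunits Cd3d, Cd3e and Cd3g were near background. Among 11 dendritic cell, 13 neutrophil, 5 B cell, 9 mast cell and 14 epididymal genes 0 passed in limma (2 at an unadjusted p under 0.05). The part of other cell types in the members' differences was not tested.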

How the data were processed

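Total RNA (100 ng per sample) from 20 epididymal samples was hybridised to 1 array each. The authors deposited log2 signal values for 36685 features, made with RMA per the submitters' processing notes, of unstated version and settings. Values ran from -0.17 to 12.5. The array annotation held with the series named 1 gene for 14824 probe sets, and the brightest probe set by its mean over 20 arrays stood for each of 14557 genes. No normalization or filter was added. The number of arrays limits the precision. All 20 arrays entered a single limma (3.58.1, under R 4.3.3) model of group means. P-values were adjusted by Benjamini and Hochberg's method across the 14557 genes and called at 0.05. Adjusted p-values come from that model. It was also run on simulated data, in which genes were independent and each had the same spread in all groups. That run cannot show how the p-values behave where spreads differ, as for Evi2b (SD 0.17 in obese and 0.73 in rosiglitazone rats). Errors of log2 differences are standard errors, and p-values measure the spread between these arrays, which may be in part technical. All 7 members are named in each comparison, except that compound-treated against lean control rats are given as ranges. The rule for lists named the genes that passed, and otherwise up to 4 of the brightest; lists of other cell types are given mostly as counts, and a few further genes (Trem2, Cd9, Cd68, Csf1r, Ccr2, Tyrobp, Fcer1g, Evi2a, Omg and the T cell receptor subunits) were named after their values were seen. Genes most like the members had the highest within-group correlation, 10 for the mean of the members and 3 for each member. The members and lists were chosen with earlier results of these data known. Alternatives were quantile normalization, median subtraction, an array SD covariate, a background filter, fits of 2 groups, a variance trend, array weights, other probe set rules, a replicate block and leaving out each array.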

Additional observations from a re-analysis of the deposited data

Results flagged for a closer look

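In each of 28 groups of 5 arrays (7 members in 4 groups) the highest and lowest array was set against the rest, and 3 groups held an array whose gap to its neighbour exceeded Dixon's 95% critical value of 0.71 of the range. Chance flags about 5% of groups. The 28 groups are not independent, since the members share arrays and vary together, so nothing is read from the count. Cd5l was at 3.99 in rosiglitazone replicate 5 (gap 0.79 of the range), Plet1 at 4.84 in lean control replicate 3 (0.79) and Gpnmb at 8.23 in obese replicate 3 (0.76). The first 2 arrays were the highest of their groups in 7 of 7 members, and obese replicate 3 in 5 of 7.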

How the results depend on the processing

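Under 30 alternatives, 20 of which left out 1 array, the members called between rosiglitazone and resveratrol numbered 1 to 3 with an array left out, 5 with the array SD covariate (where Gpnmb at adjusted p = 0.0306, Lyz2 at 0.025 and Cd300lb at 0.0055 joined Cd5l and Evi2b) and 1 with all features tested. Cd5l passed in 29 of 29 (adjusted p from 9.73e-05 to 0.0282, its mean being under the background filter in the remaining alternative), Evi2b in 25 of 30 (0.00133 to 0.0823) and Cd300lb in 10 of 30 (0.00477 to 0.176). Between rosiglitazone and obese rats the obese arrays helped to choose the members, so the counts are a description only. The count there was 0 to 3 with an array left out, 3 with the covariate, 3 with array weights and 0 with all features tested. Evi2b passed in 26 of 30 (0.00113 to 0.0653). Between resveratrol and obese rats the count was 0 under all 30. The median rosiglitazone minus lean control difference of the members, 1.20, was 0.12 with the covariate, and that of obese minus lean control, 1.74, was 1.10. Between rosiglitazone and resveratrol Lgals3 turned to -0.15 with the covariate and was 0.03 with quantile normalization. It ran from -0.0233 to 0.44 with an array left out, negative without rosiglitazone replicate 5 alone. Between resveratrol and obese rats Evi2b turned to -0.0191 with array weights and ran from -0.18 to 0.18 with an array left out, and Plet1 from -0.30 to 0.56. The cause of these changes was not tested. Without lean control replicate 3 the median correlation between members was 0.83 in place of 0.88. Over all genes, replicate numbers gave no general pairing of the arrays. Of 30 same-numbered pairs 6 correlated above 0.1 in their deviations from group means, and 8 of 60 best partners shared a number. The highest such correlation was 0.40, between lean control and obese replicate 3. Members did peak on like numbers: replicate 5 in both compound groups (7 of 7), and replicate 3 in lean control (7 of 7) and obese rats (5 of 7). With the replicate block 3 members passed between rosiglitazone and resveratrol (Cd300lb joining at adjusted p = 0.0267) and 1 between rosiglitazone and obese rats, and genes called were 1099 and 1320.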
